A study of Homo sapiens with 12 samples.

Results

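The cytosolic and mitochondrial chaperones are described here as 42 genes of the 20015 in the deposited table, chosen by gene symbol from families known for these roles. They comprise 6 cytosolic HSP70 and HSP110 genes, 2 cytosolic HSP90 genes, 5 cytosolic HSP40 genes, the small heat shock protein gene HSPB1, the 8 subunits of the chaperonin CCT/TRiC, and 2 prefoldin subunits. The others are 5 mitochondrial chaperone genes, 7 co-chaperones of HSP90, 4 co-chaperones of HSP70, and the heat shock factors HSF1 and HSF2. All 42 passed the filter on low counts. RNA was sequenced from HT29 cells, a human colorectal adenocarcinoma line, which in every group carried Cas9 and a lentiviral guide RNA. The guide was non-targeting in the WT groups and directed at QRICH1, a regulator of transcription under stress of the endoplasmic reticulum (ER), in the QRICH1 KO groups. Cells received the solvent DMSO or tunicamycin (Tm, 0.3 µg/ml, 14 h), which blocks N-linked glycosylation so that unfolded proteins build up in the ER. Each of the 4 combinations of guide and treatment held 3 libraries, and they are named here by genotype and treatment. Whether the QRICH1 KO cells were 1 clone or a pool is not given in the sources used here.

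Total counts were 6856736 to 17861844 per library. QRICH1 mRNA was a weak check of the labels, with 29.6 ± 6.26 CPM (counts scaled to the library total after TMM, in parts per 1e+06, SD, n = 3) in WT DMSO and 24.1 ± 0.714 CPM in QRICH1 KO DMSO. Under Tm its level was 29.2 ± 3.04 CPM in WT and 22.8 ± 3.84 CPM in QRICH1 KO, and no comparison called it. Of 10 epithelial markers 9 passed the filter, CDX1 being the exception, and CDX2 passed it at only 0.226 to 1.44 CPM. Of 14 markers of other cell types 4 passed the filter. Among the 14, LYZ was at 1830 to 2650 CPM and the other 13 at no more than 2.99 CPM. Replicate 3 of QRICH1 KO DMSO and replicate 3 of QRICH1 KO Tm stood apart with 15340 and 14813 genes detected, against 13124 to 14094 in the other 10 libraries.

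Chaperones bind unfolded segments of proteins and release them by cycles of ATP use. In the cytosol, HSP40 proteins hand clients to HSP70, nucleotide exchange factors such as HSP110 and the BAG proteins reset HSP70, and STIP1 passes clients on to HSP90. CCT/TRiC folds actin and tubulin in a closed chamber to which prefoldin delivers them, and mitochondria hold their own HSP70, HSP60 with its lid HSP10, and HSP90. Many of the cytosolic genes are classical targets of HSF1. Stress in the ER acts through ATF6, XBP1 and ATF4, and the chaperone genes it raises are chiefly those of the ER.

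Promoter sequence is shown for 4 members and for HSPA5, the ER member of the HSP70 family, to set the heat shock element letters of cytosolic genes beside a mitochondrial gene and the ER stress element of an ER gene. Windows came from the RefSeq table for GRCh38.p14 and run from 250 bases before to 50 bases after an annotated start. They were found for 35 of the 42 members, in 48 windows. The heat shock element was searched on both strands as 2 facing units, GAANNTTC or TTCNNGAA, and as 3 units, in which a further GAA or TTC follows in alternation after the same gap, so that each also holds the 2-unit letters. The 2-unit letters stood in 17 of 48 member windows (35.4%) and in 13.5% of all 35116 windows in the table. The 3-unit letters stood in 7 member windows (14.6%) and in 0.49% of all windows. The ER stress element, CCAAT and CCACG with 9 bases between them, was found in 0 member windows and in 0.0769% of all windows. At so low a share, 0 in 48 windows does not set the members apart from other genes. Of the 11 ER chaperone genes examined further on, 10 had a window, and only 2, HSPA5 and HSP90B1, held the element. The letters TGATGNAAN, read by ATF4 with CHOP, were also found in 0 member windows and in 3.61% of all. Each run below starts 250 bases before the start, is read on the gene's strand, and has the matched element in capitals.
HSPA8 (chr11:123062127-123062386, minus strand, heat shock elements): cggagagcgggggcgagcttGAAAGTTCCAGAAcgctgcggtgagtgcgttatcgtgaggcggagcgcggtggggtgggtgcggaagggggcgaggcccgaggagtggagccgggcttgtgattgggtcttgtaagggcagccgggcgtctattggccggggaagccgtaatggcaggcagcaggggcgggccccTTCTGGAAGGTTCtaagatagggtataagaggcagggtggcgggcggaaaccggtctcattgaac
HSP90AA1 (chr14:102087035-102087294, minus strand, the downstream of its windows, heat shock elements): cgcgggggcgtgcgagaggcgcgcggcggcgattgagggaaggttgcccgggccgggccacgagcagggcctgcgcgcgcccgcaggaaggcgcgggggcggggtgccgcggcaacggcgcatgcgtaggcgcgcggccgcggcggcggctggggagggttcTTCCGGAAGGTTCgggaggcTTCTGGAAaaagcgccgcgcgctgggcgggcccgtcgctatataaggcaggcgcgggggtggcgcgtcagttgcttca
HSP90AB1 (chr6:44247693-44247952, plus strand, the most downstream of its windows, heat shock elements): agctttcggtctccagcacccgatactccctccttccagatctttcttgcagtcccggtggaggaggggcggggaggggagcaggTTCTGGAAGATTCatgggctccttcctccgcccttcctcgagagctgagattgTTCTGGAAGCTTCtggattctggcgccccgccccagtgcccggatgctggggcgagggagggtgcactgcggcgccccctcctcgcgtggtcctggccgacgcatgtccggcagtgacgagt
HSPA9 (chr5:138575392-138575651, minus strand, 2-unit match across the start): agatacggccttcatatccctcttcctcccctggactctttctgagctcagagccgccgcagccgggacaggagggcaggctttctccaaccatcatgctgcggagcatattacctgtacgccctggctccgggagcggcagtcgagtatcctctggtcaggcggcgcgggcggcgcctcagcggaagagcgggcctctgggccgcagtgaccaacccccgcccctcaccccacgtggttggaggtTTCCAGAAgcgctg
HSPA5 (chr9:125241334-125241593, minus strand, ER stress element): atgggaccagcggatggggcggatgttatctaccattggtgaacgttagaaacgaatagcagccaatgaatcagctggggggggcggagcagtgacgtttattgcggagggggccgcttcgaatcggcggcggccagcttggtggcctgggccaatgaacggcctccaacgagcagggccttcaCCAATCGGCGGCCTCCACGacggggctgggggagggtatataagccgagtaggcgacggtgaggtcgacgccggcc

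In HSPA8, HSP90AA1 and HSP90AB1 the 3-unit letters lie upstream of the start in the window shown, at 55, 88 and 112 bases before it for the match nearest to it. HSP90AA1 and HSP90AB1 also have windows at more upstream annotated starts, and those held no match. HSPA9 holds only the 2-unit letters, and they straddle the start. Other members with the 3-unit letters were DNAJA1, DNAJB6, HSPD1 and CHORDC1. A match describes these letters and was not tested as a site of binding.

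Levels per kilobase of exon differed widely between the genes. The length used was that of all annotated exons of a gene merged, which can exceed that of a single transcript. For HSPA8 it was 4.849 kb, against 2463 bases in its longest protein-coding transcript. The order of genes with close levels therefore depends on the annotation. In WT DMSO, HSPA8, the constitutive cytosolic HSP70, was highest with 2403 ± 113 CPM per kb (SD, n = 3), followed by HSP90AB1, the constitutive HSP90, with 1626 ± 77.1 CPM per kb. HSPD1, the mitochondrial HSP60, came next with 562 ± 11.3 CPM per kb, then the HSP90 co-chaperone PTGES3 (p23) with 421 ± 6.12 and CCT6A with 396 ± 18.6. The 3 highest did not overlap with each other or with PTGES3 in WT DMSO. The heat-inducible HSPA1A and HSPA1B were at 19.9 ± 3.93 and 16.1 ± 2.37 CPM per kb, and the glucocorticoid-responsive FKBP5 was lowest with 2.84 ± 0.0772. All 42 members together summed to 3.49 ± 0.180% of the TMM-scaled library total in WT with DMSO and 2.89 ± 0.183% with Tm. In QRICH1 KO the sum was 3.83 ± 0.352% with DMSO and 3.22 ± 0.161% with Tm. The scaled total is the library total times its TMM factor, so these are not shares of raw counts. Of raw counts the members took 3.609 to 3.742% in WT DMSO and 2.657 to 2.745% in WT Tm. The raw shares in QRICH1 KO were 3.855 to 4.09% with DMSO and 3.03 to 3.206% with Tm.

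**Figure D1:**
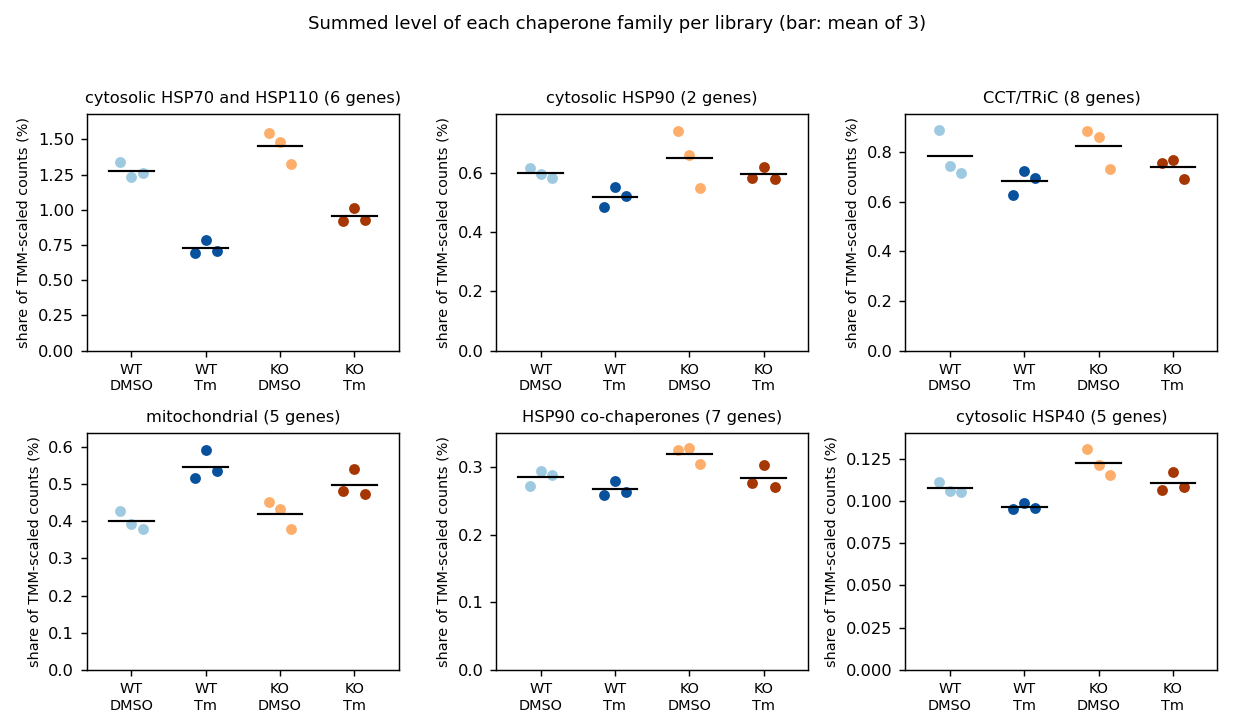
Summed level of 6 chaperone families, as a percentage of the TMM-scaled library total (y axis), in each library (points) of the 4 groups (x axis). The group mean is a bar. The cytosolic HSP70 and HSP110 sum was lower in every Tm library than in every DMSO library, and the mitochondrial sum was higher.

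The comparison of Tm with DMSO in WT asks what ER stress does to chaperones outside the ER. HSPA8, HSPA1A, HSPH1, HSP90AA1, HSPB1 and the HSP90 partners FKBP4 and FKBP5, all cytosolic, fell by 1.38- to 2.26-fold. The mitochondrial HSP70 gene HSPA9, its partner DNAJA3, both prefoldin genes and DNAJC7 rose by 1.28- to 2.49-fold. By the edgeR test, 7 members were lower and 5 higher, and 30 were not called at an adjusted p under 0.05. Of all 11323 genes tested, 11.1% were called lower, 12.6% higher and 23.8% in either direction. The members' shares, 16.7% lower and 11.9% higher, lie near that background, and their median log2 fold change was -0.14 against -0.02 for all genes. The fold change was below 0 for 29 of 42 members, against 52.3% of all genes. At an unadjusted p under 0.05, 6 members were higher and 11 lower, against 17.7% and 17.2% of all genes. All 3 Tm libraries lay below all 3 DMSO libraries for 14 members and above them for 8, against 18.5% and 19% of all genes. With libraries scaled by their totals alone, the median of all genes itself moved to -0.21 in WT and -0.11 in QRICH1 KO. The members called then became 22 lower and 3 higher in WT, where 2245 of all 11323 genes were lower and 893 higher. In QRICH1 KO they became 19 lower and 2 higher, where 1226 of all genes were lower and 700 higher. Below, a member not called is one not called by edgeR with TMM and all libraries, unless another fit is named. Library totals also called HSP90AB1, HSPA4, TRAP1, STIP1, PTGES3, DNAJB6 and HSF1 lower in WT. The same setting called HSPA1B, HSPA4, TRAP1, STIP1 and DNAJB1 lower in QRICH1 KO.

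The same comparison in QRICH1 KO gave 6 members lower and 3 higher, with 33 not called, where 6.53% of all genes were called lower, 9.09% higher and 15.6% in either direction. The members' median was -0.16, against 0.00 for all genes, and 32 of 42 lay below 0, against 50.4% of all genes. At an unadjusted p under 0.05, 6 members were again higher and 11 lower, against 15.1% and 13.5% of all genes. The libraries of Tm and DMSO did not overlap for 12 members that were lower and 5 that were higher, against 15.5% and 16.9% of all genes. Both comparisons called HSPA8, HSPH1, HSPA1A, HSPB1 and FKBP4 lower and HSPA9, DNAJA3 and PFDN2 higher. These 8 genes are 66.7% of the 12 called in WT and 88.9% of the 9 called in QRICH1 KO. The matching shares over all genes were not counted, so the overlap does not set the members apart. By edgeR, HSP90AA1, FKBP5, DNAJC7 and PFDN5 were called in WT and not in QRICH1 KO, and HSF1 in QRICH1 KO and not in WT. Some of these lie near the threshold, HSP90AA1 being called in QRICH1 KO as well by DESeq2. The test of the difference between the genotypes, given further on, called none of these 5. The fold changes had the same sign in both genotypes for 35 members (83.3%), against 74.7% of all genes.

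**Figure D2:**
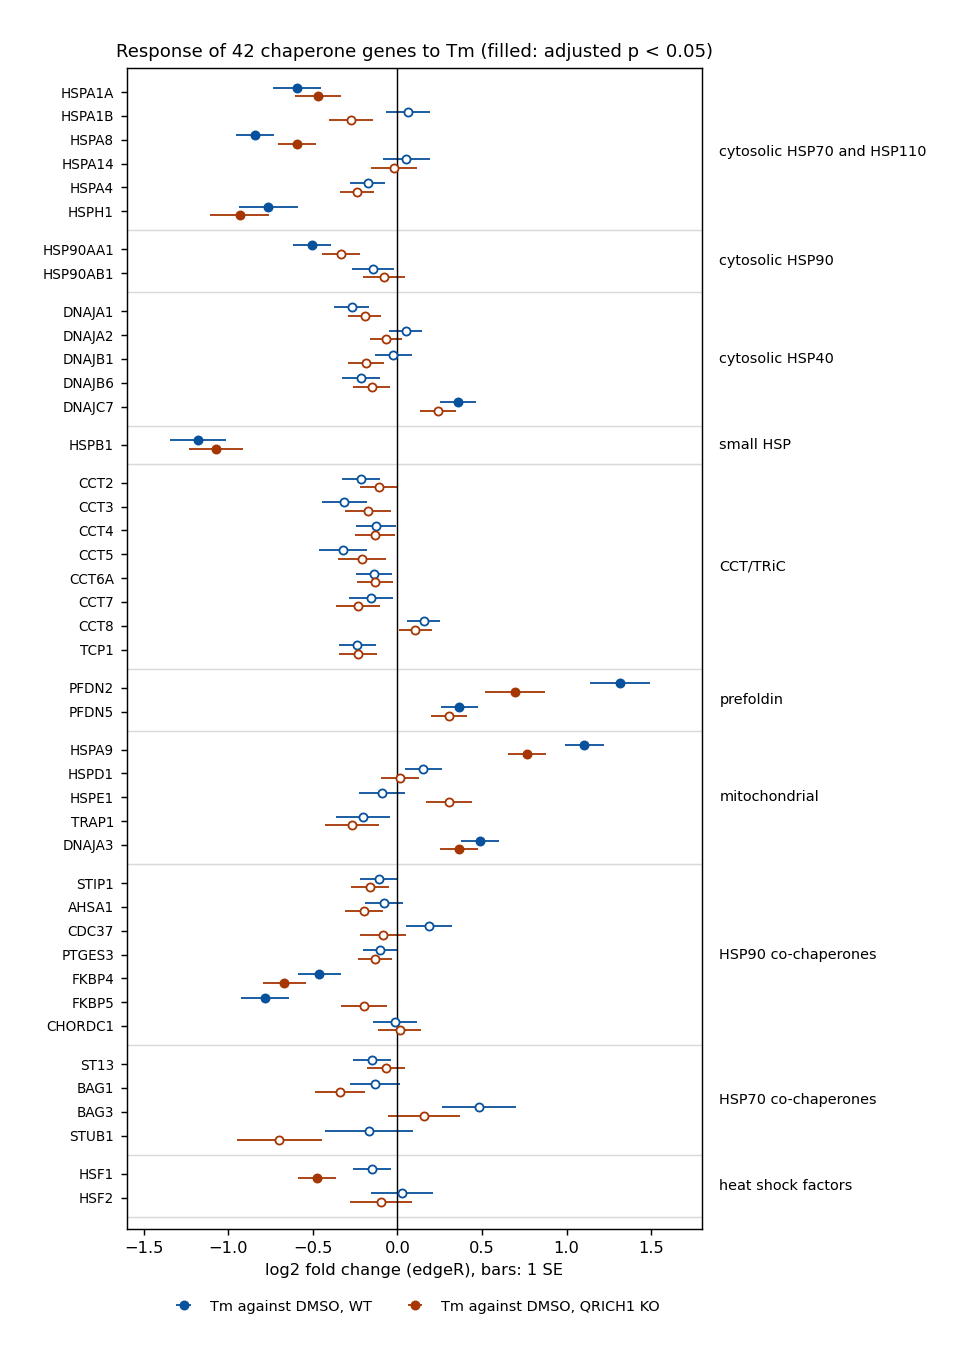
Log2 fold change of each of the 42 genes with Tm against DMSO (x axis; bars, 1 SE from edgeR) in WT (blue) and QRICH1 KO (brown), by family. Filled points passed an adjusted p of 0.05: HSPA8, HSPH1, HSPA1A, HSPB1 and FKBP4 lie to the left and HSPA9, DNAJA3 and PFDN2 to the right in both genotypes.

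Among cytosolic HSP70 and HSP110 genes, 3 of 6 were called lower in each genotype. The mean sum of the 6 genes went from 1.28 ± 0.0554% of the TMM-scaled library total to 0.729 ± 0.0502% in WT. In QRICH1 KO it went from 1.45 ± 0.113% to 0.955 ± 0.0502%. HSPA8 (ENSG00000109971.14, hg38 chromosome 11:123057489-123063230, minus strand) carried most of that sum. Its level was 12277, 11276 and 11397 CPM in WT with DMSO and 6159, 7058 and 6277 CPM with Tm. In QRICH1 KO it was 13606, 13173 and 12051 CPM with DMSO and 8258, 9106 and 8390 CPM with Tm. The Tm libraries of both genotypes were below all DMSO libraries, and those of WT were the lowest. HSPA8 fell 1.79-fold in WT (log2 -0.84, SE 0.113, edgeR adjusted p = 2.11e-05) and 1.51-fold in QRICH1 KO (log2 -0.59, SE 0.113, adjusted p = 0.00132). In bulk libraries a change in all cells and a change in a share of them cannot be told apart, for this and every gene below.

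HSPH1 encodes HSP110, a nucleotide exchange factor for HSP70 (chromosome 13:31134974-31162388, minus strand). Its level was 649, 610.5 and 772 CPM in WT with DMSO and 379, 396 and 421 CPM with Tm. The QRICH1 KO libraries were at 1426, 1162 and 750.3 CPM with DMSO and 631, 628 and 491 CPM with Tm. Every Tm library was below every DMSO library of its genotype, and replicate 3 of QRICH1 KO DMSO was far below the other 2. HSPH1 fell 1.70-fold in WT (log2 -0.76, SE 0.174, edgeR adjusted p = 0.00341) and 1.91-fold in QRICH1 KO (log2 -0.93, SE 0.174, adjusted p = 0.00113).

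HSPA1A, the heat-inducible HSP70 (chromosome 6:31815464-31817946, plus strand), was at 60.1, 46.7 and 41.2 CPM in WT with DMSO and 34.3, 34.9 and 28.0 CPM with Tm. In QRICH1 KO it was at 57.8, 63.0 and 52.0 CPM with DMSO and 41.7, 40.2 and 42.8 CPM with Tm. The Tm and DMSO libraries did not overlap in either genotype. HSPA1A fell in WT (log2 -0.59, SE 0.142, edgeR adjusted p = 0.00478) and in QRICH1 KO (log2 -0.47, SE 0.138, adjusted p = 0.0271), the latter call being lost when any 1 of 5 of the 6 QRICH1 KO libraries was left out (adjusted p 0.0589 to 0.129). HSPA1A and its neighbour HSPA1B cannot be fully told apart, because 72.6% of the 50-base stretches of HSPA1A also occur in HSPA1B. HSPA1B itself was not called, with log2 0.06 (SE 0.13) in WT and -0.28 (SE 0.128) in QRICH1 KO. HSPA4, another exchange factor of the HSP110 type, had -0.18 and -0.24, and HSPA14, which acts at the ribosome, had 0.05 and -0.02; neither was called.

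The cytosolic HSP90 genes differed in their calls in WT by edgeR with TMM. HSP90AA1, the inducible form (chromosome 14:102080738-102139699, minus strand), was at 1144, 1034 and 1227 CPM in WT with DMSO and 779, 848 and 769 CPM with Tm. The QRICH1 KO libraries were at 1448, 1269 and 1168 CPM with DMSO and 945, 1027 and 1112 CPM with Tm. The groups did not overlap within either genotype. It fell in WT (log2 -0.51, SE 0.113, edgeR adjusted p = 0.00285), and in QRICH1 KO its log2 fold change of -0.33 (SE 0.113) missed the threshold with an adjusted p of 0.0528. HSP90AA1 was called lower in QRICH1 KO by DESeq2 (adjusted p = 0.0252), without the low-count filter (0.0488), with library totals (0.00743), without replicate 2 of WT Tm (0.0454), without replicate 3 of QRICH1 KO DMSO (0.03) and without both replicates 3 of QRICH1 KO (0.0296). HSP90AB1 was at 4586 to 5024 CPM in WT with DMSO and 4055 to 4662 CPM with Tm, and was not called in either genotype (log2 -0.14 and -0.08).

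The small heat shock protein gene HSPB1, whose product (HSP27) holds unfolded proteins without ATP, had the largest decrease of the 42 members in both genotypes (chromosome 7:76302544-76304295, plus strand). Its level was 41.5, 53.2 and 42.3 CPM in WT with DMSO and 17.7, 23.3 and 19.6 CPM with Tm. In QRICH1 KO it was 69.0, 65.4 and 52.4 CPM with DMSO and 35.9, 24.2 and 28.4 CPM with Tm. No Tm library reached the lowest DMSO library of either genotype. HSPB1 fell 2.26-fold in WT (log2 -1.18, SE 0.166, edgeR adjusted p = 3.7e-05) and 2.10-fold in QRICH1 KO (log2 -1.07, SE 0.16, adjusted p = 0.00012).

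Of the cytosolic HSP40 genes, which deliver clients to HSP70, edgeR called only DNAJC7, and in WT alone. DNAJC7 binds both HSP70 and HSP90 (chromosome 17:41976433-42021376, minus strand). Its level was 67.9, 74.2 and 81.8 CPM in WT with DMSO and 97.4, 99.2 and 90.5 CPM with Tm. With QRICH1 KO the levels were 84.8, 83.6 and 72.8 CPM with DMSO and 90.8, 98.1 and 95.7 CPM with Tm. All Tm libraries were above the DMSO libraries of their genotype, and the increase in WT was 1.28-fold (log2 0.36, SE 0.108, edgeR adjusted p = 0.0215). That call was lost with library totals (adjusted p = 0.309) and when replicate 1 or 2 of WT DMSO or of WT Tm was left out (0.0554 to 0.0822). DNAJC7 shares 27.8% of its 50-base stretches with other transcripts, 15.5% with the opposite-strand gene CNP. DNAJA1, DNAJA2, DNAJB1 and DNAJB6 had log2 fold changes of -0.27 to 0.05 in WT and -0.19 to -0.07 in QRICH1 KO and were not called by edgeR. DNAJA1, at log2 -0.27 in WT with an edgeR adjusted p of 0.0589, was called lower there by DESeq2 (adjusted p = 0.0356) and without both replicates 3 of QRICH1 KO (0.0496), and in both genotypes with library totals. The stress-inducible DNAJB1 was at 97.1 ± 9.33 CPM in WT with DMSO and 95.4 ± 2.94 CPM with Tm (SD, n = 3).

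None of the 8 CCT/TRiC subunits was called in either genotype by edgeR or by DESeq2, and 3 (CCT3, CCT5 and TCP1) had an unadjusted p under 0.05 in WT, all lower, and 0 in QRICH1 KO. With TMM, 7 of 8 subunits lay below 0 in both genotypes, CCT8 being the exception with log2 0.16 in WT and 0.11 in QRICH1 KO. The subunits spread from -0.32 (CCT5) to 0.16 in WT and from -0.23 to 0.11 in QRICH1 KO. With library totals CCT8 turned negative in WT, and 7 subunits were called lower in WT and 4 in QRICH1 KO. The shift of all genes and their calls in that setting are given above. CCT6A, the most abundant subunit (chromosome 7:56051630-56063989, plus strand), was at 1630, 1497 and 1511 CPM in WT with DMSO and 1293, 1438 and 1475 CPM with Tm. The QRICH1 KO libraries were at 1671, 1694 and 1430 CPM with DMSO and 1397, 1514 and 1462 CPM with Tm. The CCT6A libraries did not overlap in WT and did in QRICH1 KO. CCT5 shares 49.8% of its 50-base stretches with other transcripts, chiefly an antisense RNA.

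Both prefoldin genes in the set were called higher in WT, and PFDN2 in QRICH1 KO as well. PFDN2, a beta-type subunit of the complex (chromosome 1:161100556-161118111, minus strand), was at 44.4, 32.0 and 34.2 CPM in WT with DMSO and 71.8, 104 and 97.8 CPM with Tm. With QRICH1 KO it was at 43.1, 43.7 and 32.3 CPM under DMSO and 79.6, 58.0 and 55.1 CPM under Tm. All Tm libraries exceeded all DMSO libraries. PFDN2 rose 2.49-fold in WT (log2 1.32, SE 0.179, edgeR adjusted p = 2.35e-05) and 1.62-fold in QRICH1 KO (log2 0.69, SE 0.176, adjusted p = 0.0111). The call in QRICH1 KO was lost without replicate 1 of QRICH1 KO Tm (adjusted p = 0.0702). PFDN5, an alpha-type subunit (chromosome 12:53295291-53299450, plus strand), was at 84.5, 71.9 and 77.8 CPM in WT with DMSO and 96.7, 105 and 99.6 CPM with Tm. Its levels in QRICH1 KO were 91.5, 77.4 and 80.1 CPM with DMSO and 111, 99.5 and 97.5 CPM with Tm. Its Tm libraries lay above the DMSO libraries in both genotypes. PFDN5 rose 1.29-fold in WT (log2 0.36, SE 0.109, edgeR adjusted p = 0.0202), and its log2 fold change of 0.31 in QRICH1 KO was not called (adjusted p = 0.0634, and 0.049 without replicate 1 of QRICH1 KO DMSO). The call in WT was lost with library totals (adjusted p = 0.194) and without replicate 2 of WT DMSO or of WT Tm (0.105 and 0.0689).

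**Figure D3:**
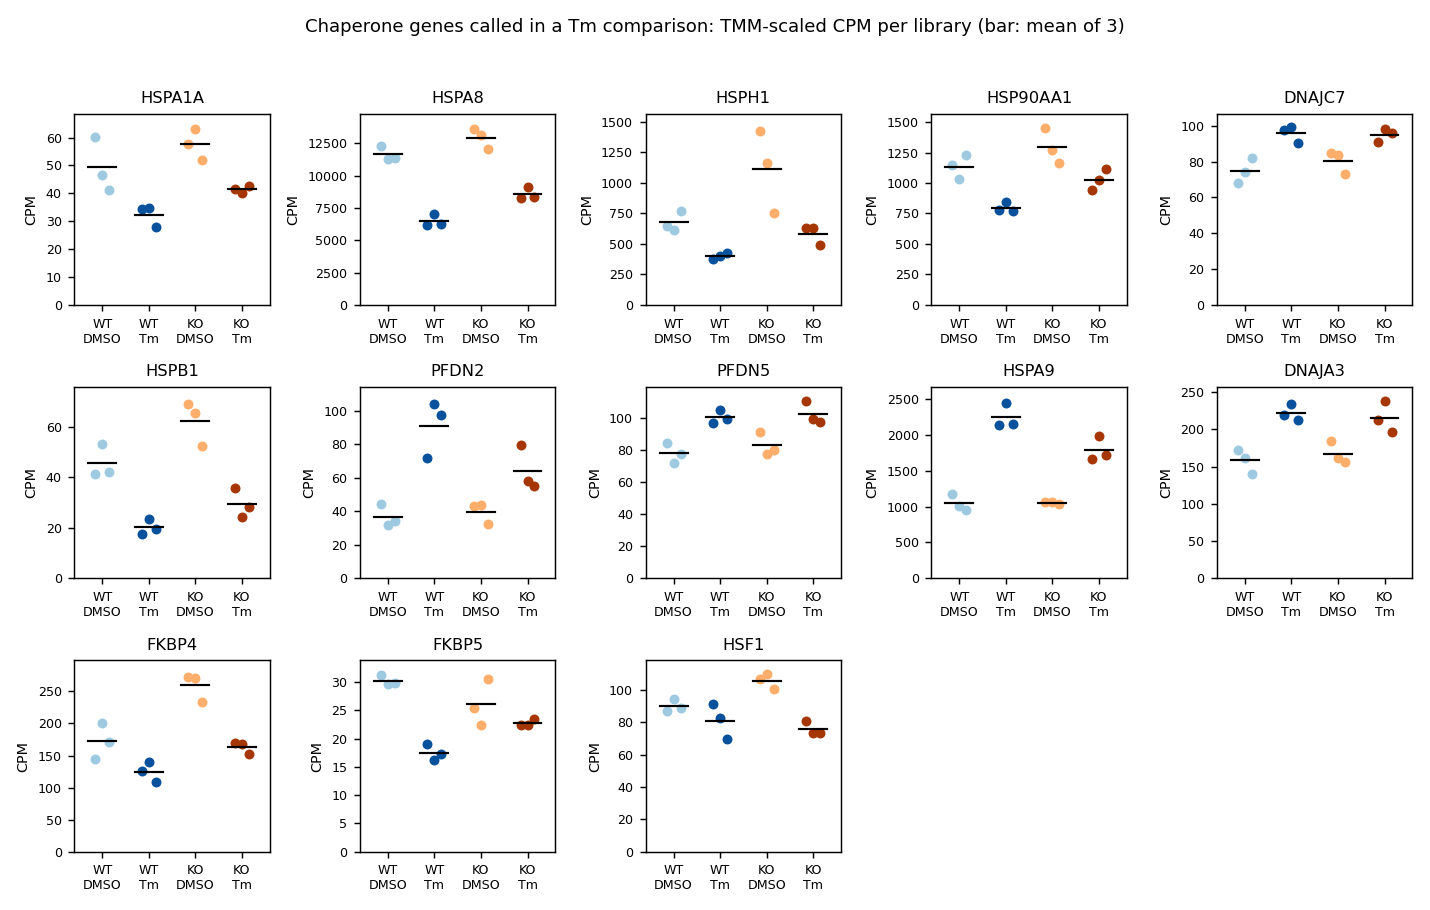
TMM-scaled CPM (y axis, from 0) in each library (points) of the 4 groups (x axis), with the mean of 3 as a bar, for the 13 members called in at least 1 Tm comparison. HSPA9 and PFDN2 were higher in every Tm library than in every DMSO library, and HSPA8 and HSPB1 were lower.

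The mitochondrial chaperones were split. HSPA9 (mortalin, chromosome 5:138553756-138575724, minus strand) is the HSP70 that pulls imported proteins into the matrix. Its level was 1169, 1011 and 946 CPM in WT with DMSO and 2136, 2440 and 2145 CPM with Tm. In QRICH1 KO it was 1059, 1066 and 1029 CPM with DMSO and 1657, 1987 and 1718 CPM with Tm. HSPA9 rose 2.15-fold in WT (log2 1.10, SE 0.114, edgeR adjusted p = 7.82e-07) and 1.70-fold in QRICH1 KO (log2 0.77, SE 0.113, adjusted p = 0.000105). DNAJA3, the mitochondrial HSP40 (chromosome 16:4425805-4456775, plus strand), was at 172, 162 and 141 CPM in WT with DMSO and 219, 234 and 212 CPM with Tm. With QRICH1 KO it was at 185, 161 and 157 CPM under DMSO and 212, 238 and 197 CPM under Tm. All Tm libraries lay above all DMSO libraries for both genes. DNAJA3 rose 1.40-fold in WT (log2 0.49, SE 0.112, edgeR adjusted p = 0.00367) and 1.29-fold in QRICH1 KO (log2 0.36, SE 0.112, adjusted p = 0.0348), where the call was lost in 6 of 19 alternatives: library totals, without replicate 2 or replicate 3 of QRICH1 KO DMSO, without replicate 1 or 2 of QRICH1 KO Tm, and without both replicates 3 (adjusted p 0.0604 to 0.164).

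The mitochondrial HSP60 and HSP10 genes, HSPD1 and HSPE1, share a promoter region and stayed below the threshold. HSPD1 was at 2387 ± 48.0 CPM in WT with DMSO and 2655 ± 176 CPM with Tm (SD, n = 3; log2 0.15), and its sign turned with library totals. HSPE1 had log2 -0.09 in WT and 0.30 in QRICH1 KO (SE 0.135, edgeR adjusted p = 0.145, and 0.0367 without replicate 1 of QRICH1 KO DMSO), and 52.9% of its 50-base stretches recur in other transcripts. TRAP1, the mitochondrial HSP90, had -0.20 in WT and -0.27 in QRICH1 KO and was not called. The summed level of the 5 mitochondrial genes went from 0.400 ± 0.0261% to 0.548 ± 0.0395% of the TMM-scaled library total in WT. In QRICH1 KO it went from 0.421 ± 0.0382% to 0.499 ± 0.0368%.

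Of the HSP90 co-chaperones, the immunophilins FKBP4 and FKBP5, which attach to HSP90 in steroid receptor complexes, were called lower in WT. FKBP4 (chromosome 12:2794953-2805423, plus strand) was at 145, 200.4 and 171 CPM in WT with DMSO and 126, 141 and 108 CPM with Tm. The QRICH1 KO libraries were at 273, 271 and 233 CPM with DMSO and 169, 168 and 152 CPM with Tm. Its highest WT Tm library was just below its lowest WT DMSO library, and the groups were further apart in QRICH1 KO. FKBP4 fell in WT (log2 -0.46, SE 0.129, edgeR adjusted p = 0.0135) and in QRICH1 KO (log2 -0.67, SE 0.128, adjusted p = 0.00136). The call in WT was lost without replicate 2 of WT DMSO (adjusted p = 0.104) or replicate 3 of WT Tm (0.0804).

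FKBP5 (chromosome 6:35573585-35728583, minus strand) was at 31.2, 29.7 and 29.8 CPM in WT with DMSO and 19.1, 16.2 and 17.3 CPM with Tm. With QRICH1 KO it was at 25.4, 22.5 and 30.6 CPM under DMSO and 22.5, 22.4 and 23.5 CPM under Tm. The groups were far apart in WT and overlapped in QRICH1 KO. FKBP5 fell 1.72-fold in WT (log2 -0.78, SE 0.14, edgeR adjusted p = 0.00043), and in QRICH1 KO the log2 fold change was -0.20 (SE 0.137, adjusted p = 0.367). The other 5 co-chaperones, STIP1, AHSA1, CDC37, PTGES3 and CHORDC1, had -0.11 to 0.19 in WT and -0.20 to 0.01 in QRICH1 KO and were not called.

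None of the 4 HSP70 co-chaperones was called with Tm by edgeR with TMM and all libraries or by DESeq2, and 1 in WT and 2 in QRICH1 KO had an unadjusted p under 0.05. The most abundant, ST13, which steadies HSP70 in its ADP state (chromosome 22:40824535-40857022, minus strand), was at 104, 109 and 112 CPM in WT with DMSO and 108, 92.4 and 92.4 CPM with Tm. In QRICH1 KO it was at 109, 101 and 99.9 CPM with DMSO and 102, 109 and 84.6 CPM with Tm, and the groups overlapped in both genotypes. Its counts are uncertain, since 30.7% of its 50-base stretches recur in other transcripts and 16 pseudogenes are named after it. BAG3, which links HSP70 to autophagy, had log2 0.48 in WT (SE 0.218, edgeR adjusted p = 0.123). STUB1, the ubiquitin ligase CHIP, had -0.70 in QRICH1 KO (SE 0.252, adjusted p = 0.0695) at a mean of 10.1 ± 1.23 CPM with DMSO and 6.22 ± 1.21 CPM with Tm, and 42.4% of its exon length overlaps JMJD8 on the other strand. STUB1 was called lower there without the low-count filter (adjusted p = 0.0326), in a fit of the 2 groups alone (0.0473), without replicate 2 of WT Tm (0.0374) and with library totals (0.0344). BAG1, an exchange factor, had -0.34 in QRICH1 KO (edgeR adjusted p = 0.126, and 0.0493 with library totals).

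HSF1, the main activator of the heat shock response, was at 87.4, 94.7 and 89.0 CPM in WT with DMSO and 91.3, 82.7 and 69.5 CPM with Tm. Its levels in QRICH1 KO were 107, 109.7 and 101 CPM with DMSO and 80.7, 73.5 and 73.5 CPM with Tm. The groups overlapped in WT and were apart in QRICH1 KO, where HSF1 fell 1.39-fold (log2 -0.48, SE 0.111, edgeR adjusted p = 0.00661). In WT its log2 fold change was -0.15 (SE 0.112, adjusted p = 0.365). HSF2, its relative, was at 18.8 ± 1.99 CPM in WT DMSO and was not called. Heat shock element letters of 2 units stood in the windows of 4 of the 6 genes called lower that had a window, 1 of the 4 called higher and 11 of the 25 not called in either genotype. Counted by gene, 16 of the 35 members with a window (45.7%) held them, and 16.2% of all 27305 genes with one. A link of these letters to the direction of change was not tested.

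QRICH1 KO was compared with WT under each treatment to ask how these genes depend on QRICH1. Under Tm DESeq2 called HSPA8 alone among the members, and of all 11323 genes it called 90 higher and 199 lower. No member was called by edgeR, where 1.17% of all genes were called. Without adjustment, 9 members were higher in QRICH1 KO and 2 lower at p under 0.05, against 6.78% and 6.58% of all genes. The libraries did not overlap for 12 members that were higher and 2 that were lower, against 9.41% and 9.06% of all genes. The 9 were HSPA8, HSPB1, HSP90AA1, HSPH1, FKBP4, DNAJA1, FKBP5, HSPA1A and HSPE1, with log2 fold changes of 0.29 to 0.55, and in each of them all 3 QRICH1 KO Tm libraries lay above all 3 WT Tm libraries. The 2 lower members were HSPA9 (log2 -0.33, SE 0.113, edgeR adjusted p = 0.2) and PFDN2 (log2 -0.50, SE 0.174, adjusted p = 0.2). HSPA8 was at 6498 ± 488 CPM in WT Tm and 8585 ± 456 CPM in QRICH1 KO Tm (SD, n = 3; log2 0.40, SE 0.113, edgeR adjusted p = 0.102, and 0.0124 by DESeq2). The fold change was above 0 for 30 of 42 members under TMM, against 51.5% of all genes. It was above 0 for 26 members with RLE factors or DESeq2 and for 36 with library totals, where the share of all genes was not counted. The median log2 fold change of all genes also moved, from 0.01 with TMM to -0.01 with RLE factors, -0.011 with DESeq2 and 0.07 with library totals.

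Under DMSO DESeq2 called FKBP4 and HSPH1, and of all 11323 genes it called 25 higher and 36 lower. No member was called by edgeR here either, where 0.0971% of all genes were called. Without adjustment, 8 members were higher and 0 lower in QRICH1 KO at p under 0.05, against 5.22% and 3.85% of all genes. The libraries did not overlap for 10 members that were higher and 0 that were lower, against 7.4% and 6.09% of all genes. FKBP4 was at 172 ± 27.8 CPM in WT DMSO and 259 ± 22.4 CPM in QRICH1 KO DMSO (SD, n = 3; log2 0.59, SE 0.128, edgeR adjusted p = 0.0918), and without both replicates 3 of QRICH1 KO it was called (log2 0.64, adjusted p = 0.0448). HSPH1 was at 677 ± 84.5 and 1113 ± 340.5 CPM (log2 0.72, SE 0.174, edgeR adjusted p = 0.137), and without those 2 libraries it was called as well (log2 0.92, adjusted p = 0.00284). Replicate 3 of QRICH1 KO DMSO, with 750.3 CPM, lay within the WT range of HSPH1. Without the same 2 libraries, HSPH1 was also called under Tm (log2 0.65, adjusted p = 0.0194, against 0.55 and 0.159 with them). The other 6 were AHSA1, HSPA1B, HSPB1, DNAJB1, STIP1 and DNAJA1, with 0.21 to 0.44. In all, 36 of 42 members had a fold change above 0 with TMM, RLE factors and DESeq2 and 35 with library totals. Of all genes 50.6% lay above 0 under TMM, and this share was not counted for the other scalings. The median of all genes was 0.004 with TMM, -0.005 with RLE factors, -0.006 with DESeq2 and -0.018 with library totals. The values of the members are descriptive, and their joint direction was not tested.

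**Figure D4:**
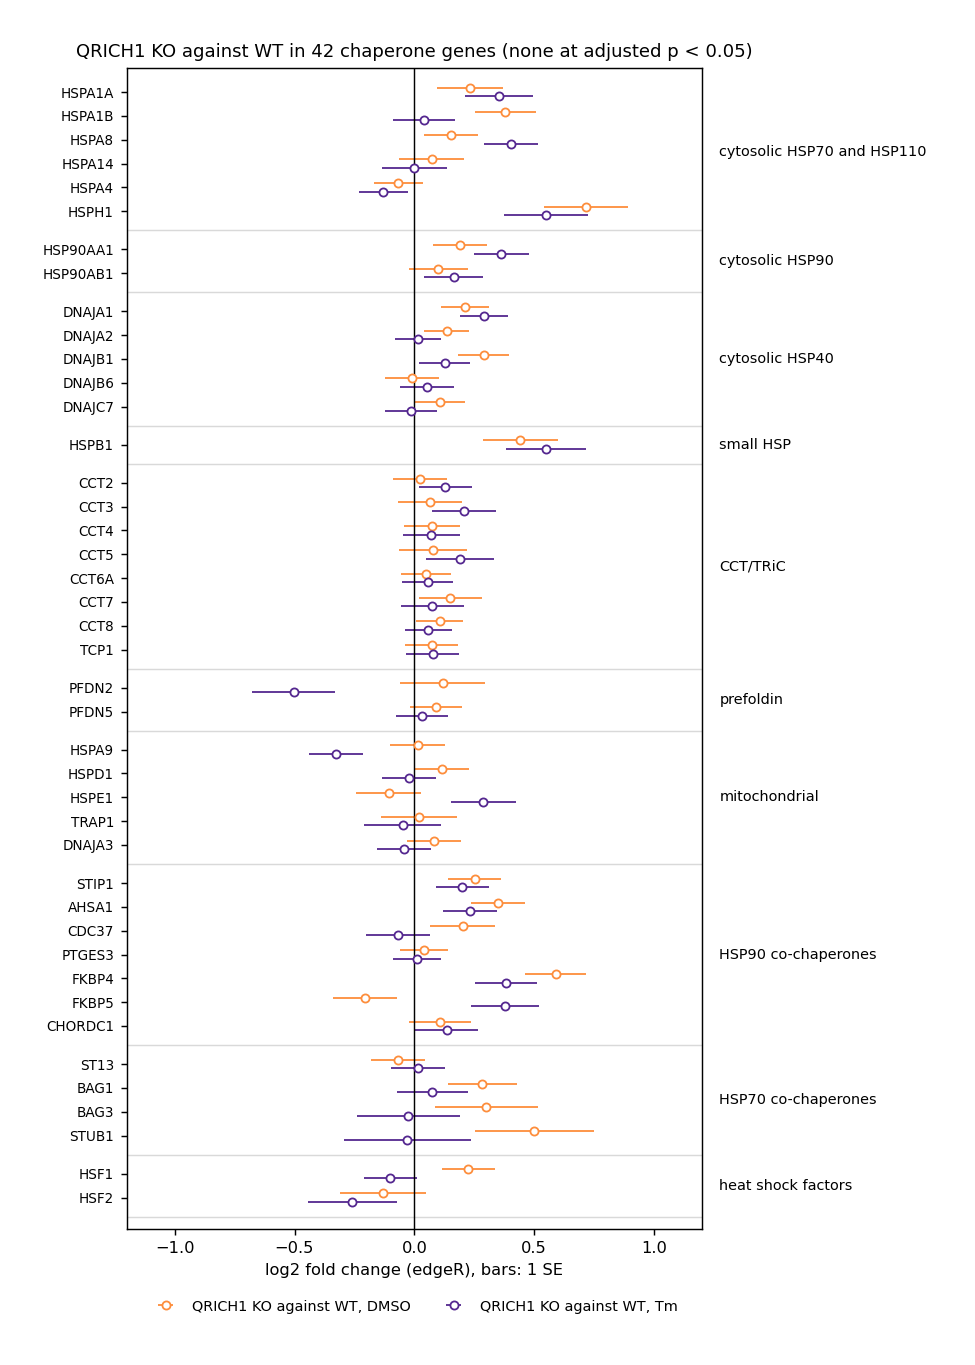
Log2 fold change of each of the 42 genes in QRICH1 KO against WT (x axis; bars, 1 SE from edgeR) under DMSO (orange) and under Tm (purple), by family. No gene passed an adjusted p of 0.05, and 36 points under DMSO and 30 under Tm lie above 0.

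The interaction, the Tm response in QRICH1 KO less that in WT, called 0 members by edgeR, where 0% of all genes were called. DESeq2 also called 0 members, where 9 of all 11323 genes were higher and 33 lower. It had 4 members at an unadjusted p under 0.05, and its share of all genes at that level was not counted. By edgeR 1 member was higher and 2 were lower at that level, against 3.02% and 3.82% of all genes, and 26 of 42 lay below 0, against 48.8%. FKBP5 had 0.58 (SE 0.196, edgeR adjusted p = 0.48), PFDN2 -0.62 (SE 0.249, adjusted p = 0.654) and HSPA9 -0.34 (SE 0.159, adjusted p = 0.727). The Tm responses of these 3 genes were smaller in size in QRICH1 KO than in WT, by differences that missed the threshold once all genes were counted.

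The ER relatives of the same families gave another picture. All 11 ER chaperone genes examined rose with Tm in both genotypes, with log2 fold changes of 1.58 to 4.69 in WT and 0.90 to 3.87 in QRICH1 KO. HSPA5 (BiP) rose 25.8-fold in WT (log2 4.69, SE 0.144, edgeR adjusted p = 8.26e-14) and 14.6-fold in QRICH1 KO (log2 3.87, SE 0.139, adjusted p = 1.16e-12). The co-chaperone genes SDF2L1 and DNAJB9 followed with log2 4.55 and 4.13 in WT and 3.49 and 3.61 in QRICH1 KO. Summed over the 11 genes, the ER set went from 0.206 ± 0.015% of the TMM-scaled library total in WT DMSO to 3.94 ± 0.265% in WT Tm. In QRICH1 KO it went from 0.213 ± 0.00635% to 2.34 ± 0.15%. Per kilobase, HSPA8 exceeded HSPA5 in WT DMSO (2403 against 277 CPM per kb), and HSPA5 exceeded HSPA8 in WT Tm (7126 against 1340 CPM per kb). Under Tm, 4 of the 11 ER genes were called lower in QRICH1 KO than in WT, HSPA5 (log2 -0.76, SE 0.124, edgeR adjusted p = 0.00484), HSP90B1 and SDF2L1 among them. Of the 42 members, 30 had a fold change above 0 and 12 below 0, and none was called. HSPA8, HSP90AA1 and HSPB1 were among those above 0, and HSPA9 and PFDN2 among those below. The difference between the 2 sets was not tested.

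**Figure D5:**
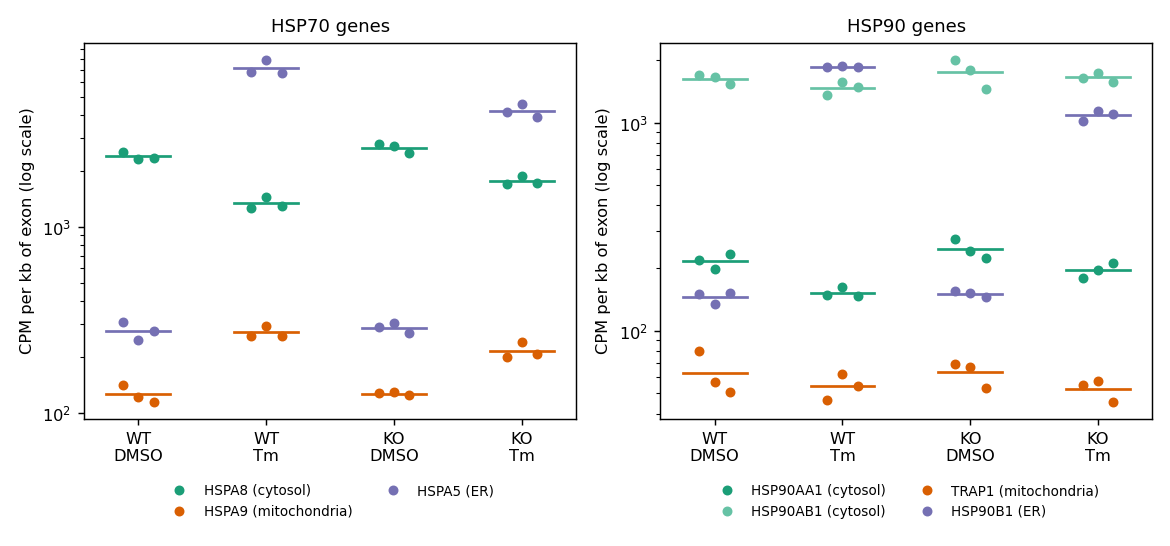
CPM per kilobase of exon (y axis, log scale) of HSP70 genes (left) and HSP90 genes (right) of the cytosol, mitochondria and ER in each library (points), with group means as lines. HSPA5 and HSP90B1 were higher in every Tm library than in any DMSO library, HSPA9 was too by a smaller step, and HSPA8 was lower.

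Further genes of these pathways were taken from lists drawn up by known function. Among 19 other mitochondrial chaperones and proteases tested, 4 were higher and 2 lower in WT with Tm, and 4 and 1 in QRICH1 KO. The genes called higher are 21.1% of the list in each genotype, against 12.6% of all genes in WT and 9.09% in QRICH1 KO. The 2 and 1 of 19 called lower compare with 11.1% and 6.53% of all genes. The matrix protease gene LONP1 rose 2.50-fold in WT (log2 1.32, SE 0.139, edgeR adjusted p = 1e-06) and 1.76-fold in QRICH1 KO (log2 0.82, SE 0.137, adjusted p = 0.000381). TIMM44, which anchors HSPA9 to the import channel, had log2 0.81 and 0.41, and the inner membrane protease gene YME1L1 0.75 and 0.50, all called. The median of this list was 0.11 in WT and 0.04 in QRICH1 KO, and 13 and 14 of its 19 genes were not called.

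Of 21 other cytosolic HSP70 and HSP40 genes tested, 4 were higher and 3 lower in WT (19% and 14.3%), and 2 and 2 in QRICH1 KO (9.52% each), beside the same shares of all genes. The HSP40 gene DNAJB4 rose in both genotypes (log2 0.97 and 0.79), the ribosome-bound DNAJC2 rose in WT (0.39) and was not called in QRICH1 KO (0.15), and the HSP110 relative HSPA4L fell in both (-0.39 and -0.44). Among 19 other co-chaperones, the HSP90-bound phosphatase gene PPP5C fell (log2 -0.57 and -0.53) and CDC37L1 rose (0.52 and 0.53), while 17 were not called in WT and 15 in QRICH1 KO. Of that list 5.26% were called in each direction in WT, and 5.26% higher and 15.8% lower in QRICH1 KO. The prefoldin and tubulin cofactor list, with 15 tested, had 2 higher (13.3%) and 1 lower (6.67%) in WT and 1 higher in QRICH1 KO: the prefoldin-like UXT (log2 0.60, and 0.58 in QRICH1 KO, also called), the prefoldin subunit PFDN4 (0.42, and 0.29, not called) and PDCL (-0.58, and -0.17, not called). Of 8 other small heat shock protein genes only 1 passed the filter, and it was not called. In none of these 5 lists was a gene called between the genotypes under Tm or DMSO by edgeR, with 7 and 6 of the 75 genes tested at an unadjusted p under 0.05. All genes had 6.78% higher and 6.58% lower at that level under Tm, and 5.22% and 3.85% under DMSO.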

How the data were processed

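The deposited table held raw gene counts per library, made by the authors from modified Smart-seq2 libraries without molecular identifiers. Trimmomatic, STAR, DESeq2 and hg38 are listed in the submitters' processing notes. The counting tool, the use of strand and the treatment of reads with several matches are details not given in the sources used here. Per-sample columns left unused numbered 0. All 12 libraries were fitted together with edgeR 4.0.16 in R 4.3.3 (TMM factors, filterByExpr with a minimum count of 10, quasi-likelihood test, 4 groups and 5 contrasts). Calls used Benjamini-Hochberg adjusted p under 0.05 over all 11323 genes tested, and SEs were derived from the F statistics of the fold changes. The scripts were tested on simulated data. The series calls the libraries biological replicates, and whether they came from separate cultures is not stated further, so p-values measure the spread between these libraries. Overlaps and shared 50-base stretches came from GENCODE 29 on hg38. A count of 3, the detection floor, equalled 0.168 to 0.438 CPM, and this limit covers counting error only. Alternatives were DESeq2 1.42.0, RLE factors, library totals, no filter, fits of 2 groups, a replicate block and leaving out libraries. The members and the lists were chosen with earlier results of these data known. Every library's value is given for members called in any comparison and for the most abundant member of a family with none. From each other list up to 3 genes are named, those with the largest change among genes called in WT with a mean of at least 10 CPM. Plots were drawn with matplotlib 3.10.9.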

Additional observations from a re-analysis of the deposited data

How the results depend on the processing

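Over 19 alternatives, 399 pairs of a called gene and a setting were recomputed. In 377 the call held, in 22 it was lost and in 0 the direction turned. These pairs include fits that left out a library of the other genotype. Such a library enters a Tm comparison only through the filter, the scaling and the shared spread. The total therefore overstates how far calls hold when a library of the groups compared is left out. With library totals, the members called with Tm in WT were 3 higher and 22 lower with a median of -0.32, and 19 were lower in QRICH1 KO, beside the counts of all genes given above. Between the genotypes, 1 member was then higher in QRICH1 KO under Tm, where 66 of all 11323 genes were higher and 57 lower. Between the genotypes, DESeq2 called 1 member higher under Tm and 2 under DMSO, beside the counts of all genes given above. A fit of the 2 groups alone called 1 higher under Tm, where 56 of all 10839 genes were higher and 87 lower. Leaving out both replicates 3 of QRICH1 KO gave 1 higher under Tm and 2 under DMSO. Of all 11449 genes, 54 were then higher and 64 lower under Tm, and 40 and 19 under DMSO. Without the low-count filter, 2 members were higher and 1 lower under Tm, and 2 higher under DMSO. Of all 17864 genes in that fit, 126 were higher and 153 lower under Tm, and 76 and 62 under DMSO. The cause of these shifts was not tested. Leaving out 1 library at a time gave 3 to 5 higher and 6 to 7 lower in WT (3 without replicate 2 of WT DMSO or of WT Tm), with a median of -0.168 to -0.071. In QRICH1 KO it gave 1 (without QRICH1 KO Tm replicate 1) to 5 higher (without QRICH1 KO DMSO replicate 1) and 5 to 8 lower, with a median of -0.209 to -0.122. The calls among all genes changed over the same fits, with 1119 to 1466 higher and 896 to 1294 lower in WT. In QRICH1 KO they were 720 to 1080 higher and 389 to 778 lower. Between the genotypes, leaving out 1 library gave 0 to 1 member higher under Tm and 0 to 2 under DMSO, both maxima without QRICH1 KO DMSO replicate 3. It gave 0 in the interaction. Without that library, 59 of all 11483 genes were higher and 98 lower under Tm, and 26 and 13 under DMSO. Same-numbered libraries correlated with -0.186 to 0.265 and exceeded 0.1 in 6 of 18 pairs, and differently numbered ones in 6 of 36 pairs. The highest value, 0.265, was that of both replicates 3 of QRICH1 KO. Since not every same-numbered pair exceeded 0.1, the block was kept as an alternative. A replicate block called 1 member higher under DMSO, FKBP4, and moved no other count past 1.5 times. Depth limits the least abundant members most, STUB1 having 33 to 198 counts per library.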
